A study of Homo sapiens with 2 samples.

Results

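The genes of antigen presentation by major histocompatibility complex (MHC) class I were read in Ca9-22 cells, an oral squamous cell carcinoma (OSCC) line, with and without an added copy of the long noncoding RNA DLEU1. The 9 genes were HLA-B, HLA-C, HLA-E, HLA-F, B2M, TAP1, TAP2, TAPBP and NLRC5. They were found by their gene symbol on the arrays, and had 19 probes of the 58201 non-control probes and 9 of the 43317 gene names. Both cultures had been infected with a lentivirus and kept on blasticidin for selection, with the DLEU1 vector in 1 and an empty control vector in the other. Each group was 1 RNA sample on 1 Cy3-labelled Agilent array, and whether the selected cells were a pool or a clone was not given in the sources used here. There was no biological replicate, so no test was possible and every difference below compares 2 cultures. Signals well above background were seen for 47.6% (control vector) and 48.1% (DLEU1 vector) of the probes, which are called detected below.

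Class I molecules show peptides from inside the cell to CD8+ T cells. A polymorphic heavy chain, made by HLA genes such as HLA-B and HLA-C, pairs with the constant light chain beta-2-microglobulin, the product of B2M. The transporter formed by TAP1 and TAP2 pumps peptides from the cytosol into the endoplasmic reticulum, and tapasin, made by TAPBP, holds the empty heavy chain next to the transporter until a peptide binds. HLA-E and HLA-F are less polymorphic heavy chains that are read by receptors of natural killer cells. NLRC5 is the transactivator of class I genes, and interferons raise the whole group in most cell types. The study set out to learn what DLEU1 does in OSCC cells, and the comparison of the vectors addresses which genes differ when DLEU1 is added.

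DLEU1 was read first as a check of the labels. The signal of its brightest probe was 2178 in control vector cells against 14156 in DLEU1 vector cells, which after scaling was 6.67-fold. Its dimmer probes were higher by less, A_19_P00321577 by 1.81-fold and A_21_P0007910 by 1.46-fold. The epithelial markers KRT5, KRT14, CDH1, EPCAM and TP63 were all detected on both arrays (5 of 5), and their signals added up to 57519 in control vector cells and 179345 in DLEU1 vector cells. Of 4 leukocyte markers 3 were detected, with a summed signal of 302 and 247, and CD3E was not. Of 3 fibroblast markers 2 were detected, with sums of 362 and 5238, almost all of it COL1A1 (337 and 5217), while COL1A2 was not well above background. Of 2 endothelial markers CDH5 was detected (55.0 and 35.6) and PECAM1 was not. Within these lists the directions were mixed. KRT5 (28686 and 119985) made up most of the epithelial sum, whereas EPCAM was lower with the DLEU1 vector (18084 and 10238), as was the fibroblast marker PDGFRB (21.3 and 16.5). The part of these marker differences in the class I values was not tested. In RNA from a whole culture, fewer cells of a kind and less RNA per cell cannot be told apart.

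The probes of the class I heavy chains differ in how well they tell related genes apart, and their sequences are shown for that reason. The following 30-base stretches come from 2 probes named HLA-B and 1 named HLA-C, with the base that differs in capitals.
HLA-B probe A_33_P3424800: gtcaattcctggaaGttgagagagcaaata
HLA-B probe A_33_P3379947: gtcaattcctggaaTttgagagagcaaata
HLA-C probe A_33_P3424803: gtcaattcctggaaGttgagagagcaaata
The HLA-C probe shared a run of 41 bases with A_33_P3424800, without a mismatch. Over a 50-base overlap the HLA-B probes differed by the single substitution G37T, counted from the 5′ end of A_33_P3424800. The array annotation placed all of them at the same site on the minus strand (hg19), A_33_P3424800 at chr6:31321663-31321722, A_33_P3379947 at chr6:31321653-31321712 and the HLA-C probe at chr6:31321644-31321703. The other HLA-C probe, A_33_P3330109, lay elsewhere, at chr6:31236617-31236676.

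The remaining HLA-B probe, A_33_P3399208, has no position in the annotation of the array. The alleles that Ca9-22 carries were not analysed here. The probe is printed in full because it differed from the other HLA-B probes in its values.
HLA-B probe A_33_P3399208: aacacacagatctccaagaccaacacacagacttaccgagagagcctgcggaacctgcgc
The 2 probes of HLA-E also differ in kind. A_33_P7431456 shared a run of at least 20 bases with each of 6 probes of other gene names, the longest runs being 21 to 48 bases. Whether all 6 hold the same run was not examined. The other HLA-E probe, A_32_P460973 (chr6:30460729-30460788, plus strand), shared no such run with any other gene name, and its first bases are printed for that reason.
HLA-E probe A_32_P460973, bases 1 to 30: cttcctcacactgacctgtgttccttccct
A total of 4 of the 19 class I probes held a run of 20 bases also present under another gene name, against 2.36% of all probes on the array (1374 of 58201). These 4 were the HLA-B, HLA-C and HLA-E probes named above for their shared runs, and no probe of HLA-F, B2M, TAP1, TAP2, TAPBP or NLRC5 did so.

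With the reported scaling, class I genes were mostly slightly higher with the DLEU1 vector, and 0 of 9 passed 2-fold in either direction. The direction depended on the scaling: where the spike-in probes were set equal on both arrays, 3 of 9 genes (HLA-F, B2M and TAPBP) were above 0, against 25.6% of all genes, and the median was -0.23. HLA-F and TAPBP were the highest and TAP2 was the lowest. Among all genes detected on both arrays, 9.18% passed 2-fold upwards and 9.78% downwards. At a 1.5-fold limit 2 of 9 were higher, against 18.4% of all genes, and 0 of 9 were lower, against 22.0%. Differences above 0 were found for 7 of 9 genes, against 45.8% of all 20246 genes. The median over the 9 genes was 0.17 on the log2 scale, and the median over all genes was -0.07. The 0.17 is the value of HLA-B, whose probe lay in a damaged strip described below, and without the strip the median was 0.12. Genes of like signal level were not set apart for this comparison. With loess, a scaling that depends on signal level, the median over the 9 genes was 0.47 and that over all detected probes 0.01. Values of genes are those of their brightest probe detected on both arrays, after the 75th percentile of each array had been subtracted on the log2 scale, and differences are DLEU1 vector minus control vector. The 9 genes were chosen with results of these arrays known, and the counts describe them only.

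**Figure D1:**
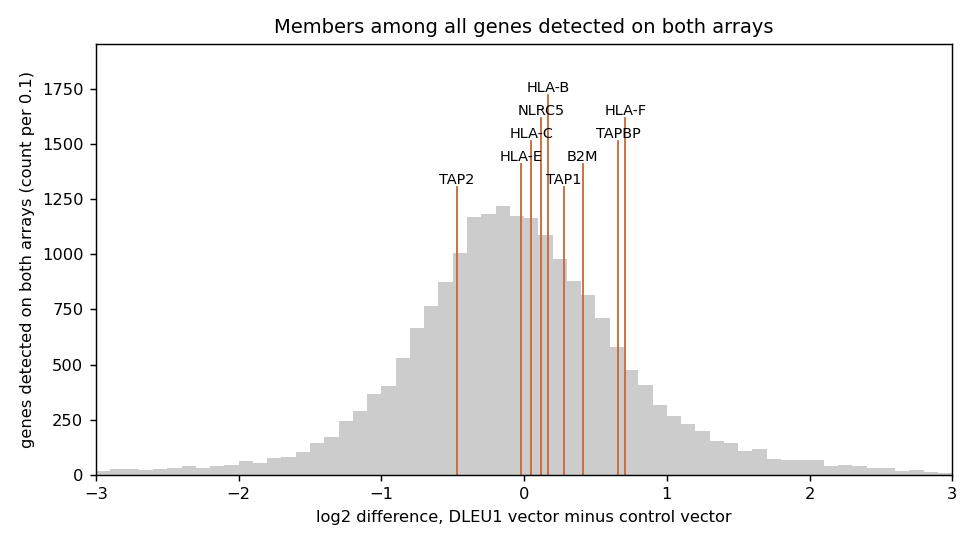
The histogram shows the log2 difference (DLEU1 vector minus control vector, x axis) of the 20246 genes detected on both arrays, as genes per bin (y axis) and limited to the range plotted, with a vertical line for each class I gene. All 9 lines lie within the bulk of the distribution, from TAP2 at -0.47 to HLA-F at 0.71.

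Technical error was taken from the array itself. The scanner software gives an error for each signal, which for the class I probes amounted to 0.20 to 0.23 on the log2 difference of a probe. Spots of the same probe differed less, with an SD of 0.0797 over 282 probes that had replicate spots. Neither value holds the spread between cultures. Of the 17 class I probes detected on both arrays, 15 were higher and 2 lower with the DLEU1 vector, against 45.6% higher among all detected probes. With median scaling 13 of the 17 were higher, against 39.1% of detected probes, and with spike-in scaling 9 were, against 25.2%. Differences of more than 2 software errors were found for 9 higher probes and 1 lower probe, and the other 7 lay within 2 errors. Among all detected probes, 23.0% were higher and 28.9% lower by more than 2 errors. No class I probe was 2-fold higher, against 8.98% of all detected probes, and none was 2-fold lower, against 9.78%. Past 1.5-fold, 7 of 17 probes were higher, against 18.2% of detected probes. Several of these probes belong to the same gene and are not independent.

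**Figure D2:**
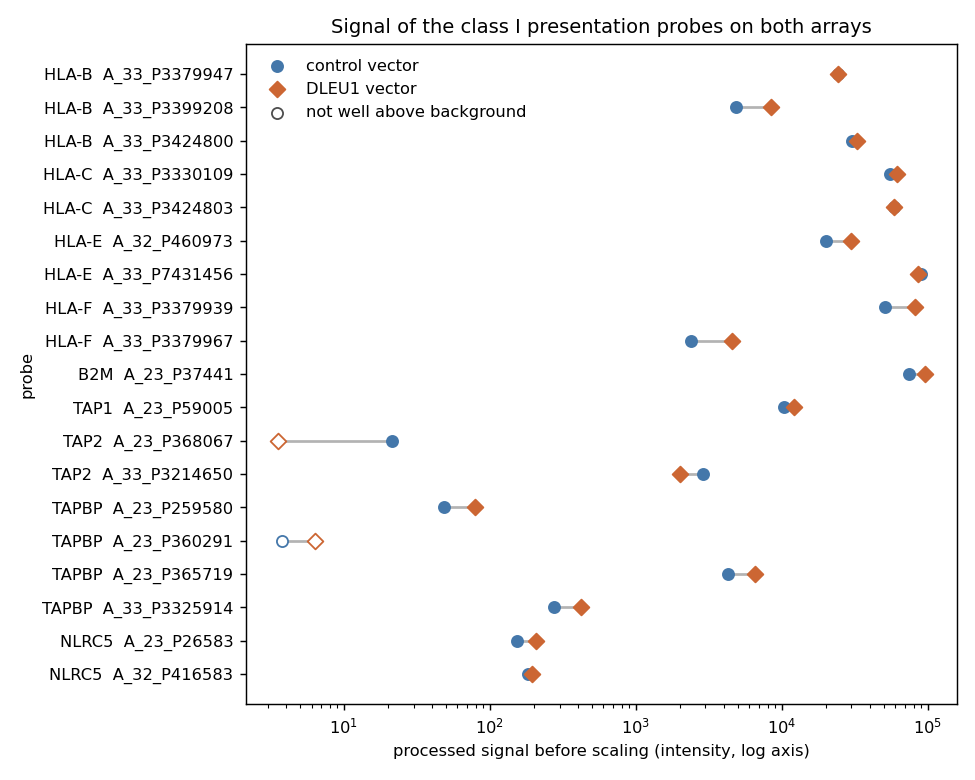
Processed signal (intensity before scaling, log axis) of the 19 class I probes on the control vector array (circles) and the DLEU1 vector array (diamonds), 1 row for each probe, with open symbols where a probe was not well above background. Signals run from 3.55 for a TAP2 probe on the DLEU1 vector array to 95858 for B2M, and the DLEU1 vector symbol lies on the left for both TAP2 probes, for HLA-E probe A_33_P7431456 and, by a small margin, for HLA-B probe A_33_P3379947.

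HLA-F had the largest difference of the heavy chains by gene value. Its probe A_33_P3379939 (chr6:29693280-29693338, plus strand) gave signals of 50743 (control vector) and 81100 (DLEU1 vector), 0.71 apart on the log2 scale, or 1.64-fold. In all that follows the control vector signal is given first. The dimmer A_33_P3379967 (chr6:29692114-29692173) had 2380 and 4555, a difference of 0.97 or 1.96-fold. Both probes were higher on the DLEU1 vector array by over 2 software errors, and the second lay just inside the 2-fold limit. It passed that limit with the 75th percentile over detected probes (1.09), quantile normalization (1.15) and loess (1.17). A greater difference than that of the brighter probe was seen for 14.7% of all detected genes. The probes are printed because they read different stretches of the gene and gave the same direction.
HLA-F probe A_33_P3379939: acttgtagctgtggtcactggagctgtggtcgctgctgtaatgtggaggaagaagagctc
HLA-F probe A_33_P3379967: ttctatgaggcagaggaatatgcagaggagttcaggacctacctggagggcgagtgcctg

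HLA-E, the ligand of the CD94 and NKG2 receptors, differed between its 2 probes. Probe A_33_P7431456, which has the shared runs, had signals of 89181 and 85904, a difference of -0.02 that lay within its error. The other probe, A_32_P460973, had 19930 and 29742, a difference of 0.62 or 1.53-fold. The gene value of HLA-E rested on the first probe because it was the brighter. The 6 probes that shared a run with that probe were named for genes with no tie to class I, among them PTK6 (152745 and 132118), SLC2A11 (41604 and 43365) and RRP7B (88069 and 77332). Their differences ran from -0.29 to 0.10 with a median of -0.13, and the difference of the HLA-E probe lay within that range. The share of HLA-E messenger RNA in its signal was not tested.

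HLA-B and HLA-C, the classical heavy chains read here, differed little on most probes. HLA-B probe A_33_P3379947 had signals of 24320 and 24157, a difference of 0.03. A_33_P3424800 had 30150 and 32979, a difference of 0.17. The probe without a genome position, A_33_P3399208, had 4877 and 8410, a difference of 0.82 or 1.77-fold. Only this HLA-B probe was past 2 software errors, and the SD between the 3 probes was 0.42, above the median SD of 0.23 between probes of 4674 genes. HLA-C probe A_33_P3330109 had 54946 and 61161, a difference of 0.19, and A_33_P3424803, the probe placed at the HLA-B site, had 58488 and 58970, a difference of 0.05. Both HLA-C differences lay within 2 errors. The gene value of HLA-C rested on A_33_P3424803, the slightly brighter probe.
A strip of the DLEU1 vector array, columns 36 to 40 in its first 104 rows, was taken as damaged. Its edges were set by columns and rows in which at least 5% of spots lit on the control vector array were over 8-fold lower. Of these lit spots, 46.9% were 2-fold lower in the strip against 13.6% elsewhere, a contrast that the choice itself favours. Of the class I probes only A_33_P3424800 lay in the strip, and without that probe the HLA-B value was 0.03.

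**Figure D3:**
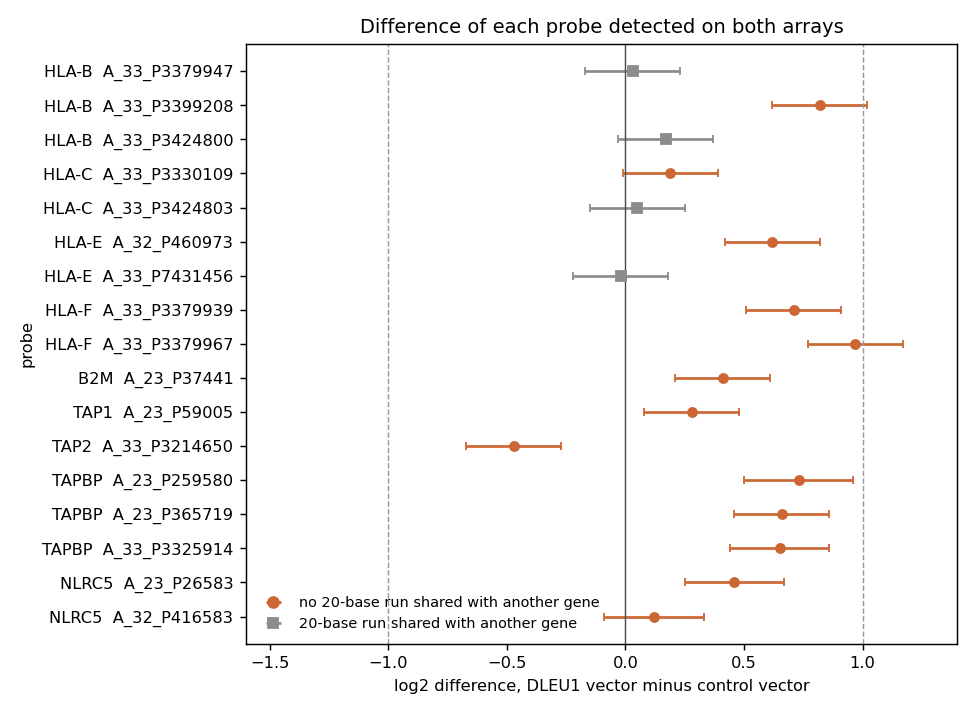
Log2 difference (DLEU1 vector minus control vector, x axis) of the 17 class I probes detected on both arrays, with bars for 1 error of the scanner software and dashed lines at 2-fold. Grey squares are the 4 probes with a 20-base run also present under another gene name, which lie between -0.02 and 0.17, and orange circles are the other 13, of which only the TAP2 probe lies below 0.

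The 4 probes with shared runs had a median difference of 0.04, and the 13 class I probes without them had a median of 0.62, from -0.47 to 0.97, with 12 higher and 1 lower. Leaving out every probe with a shared run, a choice made after the values were seen, gave 8 of 9 genes above 0 with a median of 0.41, against a median of -0.06 for the 19745 genes then left. In that setting 4 of 9 genes were at least 1.5-fold higher, against 18.7% of all genes, and HLA-B (0.82) and HLA-E (0.62) moved most. HLA-B then rested on A_33_P3399208 alone, its dimmest probe and the one without a genome position. HLA-E rested on A_32_P460973 alone.

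B2M, the light chain that every class I heavy chain needs, was higher with the DLEU1 vector. Its probe A_23_P37441 (chr15:45007773-45007832, plus strand) was printed 10 times on each array. The signal ran from 70670 to 76363 with a median of 74772 on the control vector array, and from 91062 to 100512 with a median of 96349 on the DLEU1 vector array. The spots of both arrays did not overlap. The difference was 0.41 or 1.33-fold, from 0.35 to 0.45 over the 10 spots (SD 0.0304), which are repeats of the same RNA. A greater difference was seen for 25.1% of detected genes. No spot on either array was saturated (0). The study also used B2M as the internal control of its qRT-PCR. The difference shrank to 0.01 when the spike-in probes were set equal on both arrays.
B2M probe A_23_P37441: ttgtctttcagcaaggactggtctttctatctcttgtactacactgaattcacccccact

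TAP1 and TAP2, the genes of the peptide transporter, lay on different sides of 0 with the reported scaling. With spike-in scaling both were below 0 (TAP1 -0.12, TAP2 -0.86). TAP1 probe A_23_P59005 (chr6:32813210-32813269, minus strand) had signals of 10314 and 12184, a difference of 0.28 or 1.21-fold that lay within 2 errors. TAP2 probe A_33_P3214650 (chr6:32793222-32793281), for transcript NM_001290043, had 2863 and 2019, a difference of -0.47, or 1.38-fold lower with the DLEU1 vector. It was the only class I probe past 2 errors in that direction. A second TAP2 probe, A_23_P368067 (chr6:32789804-32789863), reads the alternative transcript NM_018833. Its signals were 21.2 and 3.55, and the second was not well above background, so it was at least 1.44-fold lower. Both TAP2 probes were lower on the DLEU1 vector array, and the second was so dim that only a bound can be given. The stretches below are printed because they belong to different TAP2 transcripts.
TAP2 probe A_33_P3214650, bases 1 to 30: gctcagtattttcgcaaacagcagctgtct
TAP2 probe A_23_P368067, bases 1 to 30: cccaaagcctttggttcctcagtttccaaa

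TAPBP was higher on every probe that was detected. A_23_P365719 (chr6:33267718-33267777, minus strand) had signals of 4296 and 6593, a difference of 0.66 or 1.58-fold. A_33_P3325914 (chr6:33271911-33271970) had 274 and 418, a difference of 0.65. A_23_P259580, whose annotated range of chr6:33273141-33281029 is far longer than the probe, had 48.7 and 78.5, a difference of 0.73. The 3 differences had an SD of 0.04, and each exceeded 2 errors. The fourth probe, A_23_P360291, was not well above background on either array (3.76 and 6.29). Among the class I genes with more than 1 detected probe, TAPBP had the closest agreement between probes.

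NLRC5 was dim on both arrays. Its probe A_32_P416583 (chr16:57077428-57077487, plus strand) had signals of 183 and 195, a difference of 0.12 that lay within its error. A_23_P26583 (chr16:57116822-57116881) had 153 and 206, a difference of 0.46 or 1.38-fold, just over 2 errors. Both probes were higher with the DLEU1 vector, and they differed from each other by 0.34.

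Other genes of the pathway lay on both sides of 0. A list of 52 further genes was read, of which 45 were detected on both arrays, 6 on neither, and HLA-H had no probe. Of the 45, 23 were higher and 22 lower, with a median of 0.00, and 2 were past 2-fold upwards and 4 downwards, against 9.18% and 9.78% of all genes. Peptide trimming and loading genes (10 of 10 detected) had a median of 0.23 with 5 higher and 5 lower. The endoplasmic reticulum aminopeptidase ERAP1, which trims peptides to class I length, was the highest of them with signals of 1229 and 2142 and a difference of 0.84. The cytosolic peptidase THOP1 had 22840 and 7803, 2.85-fold lower with the DLEU1 vector. By its brightest probe it was the only gene of this list past 2-fold. A dimmer probe of CANX was also past 2-fold lower (-1.11), while its brightest was at -0.23.

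The proteasome cuts the proteins from which class I peptides come. Its 3 standard catalytic subunits were all lower, with a median of -0.87, where 45.8% of all detected genes were above 0. The values of these subunits under other scalings are not given here. PSMB6 had signals of 29569 and 12665, 2.27-fold lower, PSMB7 had 60032 and 31913, and PSMB5 had 25625 and 14445, the smallest difference at -0.79. The 5 genes of the interferon-inducible immunoproteasome and its activator had a median of 0.02, from PSMB10 (-0.55) to PSME1 (0.41), and 0 passed 2-fold. Of 14 other class I and class I-like genes 7 were detected, with a median of 0.24. The neonatal Fc receptor FCGRT was the highest of them, with 1960 and 3414 and a difference of 0.84. The iron regulator HFE was 2.04-fold lower with signals of 68.7 and 32.8. A dimmer probe of MICB was past 2-fold lower (-1.15), while its brightest was at -0.36. HLA-L and the CD1 genes CD1A, CD1B, CD1C, CD1D and CD1E were not well above background on either array.

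Of 20 genes that act on class I transcription, 11 were higher and 9 lower, with a median of 0.00. STAT2, a subunit of the interferon-activated factor ISGF3, had signals of 4241 and 15847, a difference of 1.94. IRF1, which binds class I promoters after interferon gamma, had 375 and 743, a difference of 1.03, or 2.04-fold. EZH2, the methyltransferase of repressive H3K27me3, had 2235 and 771, 2.82-fold lower.

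**Figure D4:**
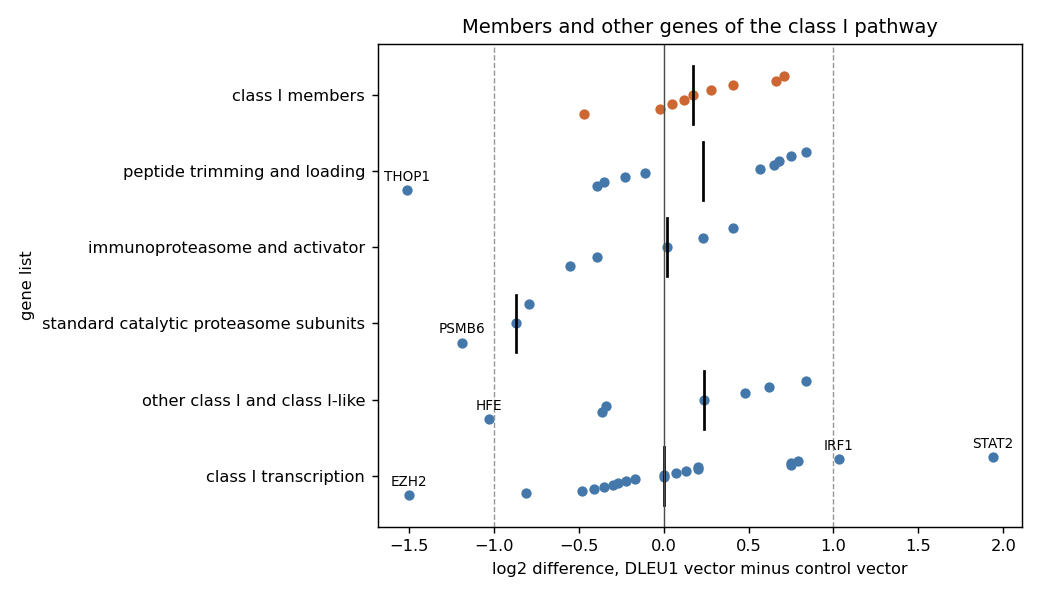
Log2 difference (DLEU1 vector minus control vector, x axis) of the class I genes (orange) and of 5 lists of other pathway genes (blue), 1 point for each gene detected on both arrays, black bars at the list medians and dashed lines at 2-fold. The class I genes stay between the dashed lines, the 3 standard proteasome subunits all lie below -0.7, and the 6 genes named in the plot are those past 2-fold.

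Promoter sequence was examined because the class I genes share known interferon elements. RefSeq promoter windows (GRCh38.p14, 250 bases before to 50 after a gene start) were found for 7 of the 9 genes, and not for HLA-E and NLRC5. The core of the interferon-stimulated response element (ISRE), searched on both strands as GAAA, any 2 bases and GAAA, was present in windows of HLA-F, B2M, TAP1, TAP2 and TAPBP, and in 3.57% of all 35116 windows. It was not found in the HLA-B and HLA-C windows with these letters. TAP1 had 2 windows, of which 1 held no match. The other TAP1 window and those of B2M and TAPBP each held 2 matches that overlap. In the stretches below, capitals mark the matches. Those of HLA-B and HLA-C are the 30 bases of their windows closest to the HLA-F stretch, from which they differ at 5 and 11 positions. These were counted base by base without gaps, so missing bases count again at later positions. The HLA-B and HLA-C stretches start alike and then run out of step, and the higher count of HLA-C is no measure of its divergence. A match is a description of the sequence and not a site shown to be used.
HLA-F, chr6:29723268-29723297, plus strand: ctccccagagTTTCTCTTTCtctcccaacc
HLA-B, chr6:31357315-31357344, minus strand: ctcccctgagtttcacttcttctcccaact
HLA-C, chr6:31272224-31272253, minus strand: ctcccctgagtttcacttctcccaacctgc
B2M, chr15:44711366-44711395, plus strand: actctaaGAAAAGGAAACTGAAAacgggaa
TAP1, chr6:32853816-32853845, minus strand: cggccgcTTTCGATTTCGCTTTCccctaaa
TAP2, chr6:32838778-32838807, minus strand: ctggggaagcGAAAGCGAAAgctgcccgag
TAPBP, chr6:33314076-33314105, minus strand: tttggagGAAAGTGAAAGTGAAAggaggaa
The differences of the genes with an ISRE core ran from TAP2 (-0.47) to HLA-F (0.71). Whether a match bears on these differences was not tested. The CCAAT box, read by the factor NF-Y and searched as CCAAT on both strands, was present in windows of HLA-B, HLA-C, HLA-F, B2M and TAP1 and in 34.6% of all windows. The letters TGACG, the core of the element bound by CREB and ATF factors, were present in windows of HLA-B, HLA-C, B2M and TAP2 and in 24.6% of all windows.

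The sign of the smaller differences depended on the processing. HLA-F, B2M, TAP2 and TAPBP kept their direction in all 14 other settings run. Not all of these settings could change it. Those that altered only filters or the choice of probes left B2M at 0.41 and TAP2 at -0.47. With spike-in scaling B2M was at 0.01. HLA-B, TAP1 and NLRC5 were below 0 with spike-in scaling (-0.23, -0.12 and -0.27). HLA-C, read by its probe at the HLA-B site, was below 0 with median scaling (-0.06) and spike-in scaling (-0.35). HLA-E was above 0 in 5 settings. In 3 of them the scaling differed, and in the others the choice of probes, with 0.30 for the mean of its probes and 0.62 without probes that share sequence. The median of all detected probes itself moved by -0.40 with spike-in scaling, by -0.11 with median scaling and by 0.11 where the percentile was taken over detected probes. HLA-F passed 2-fold with loess (1.05), and 0 of the other class I genes passed it in these settings.

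**Figure D5:**
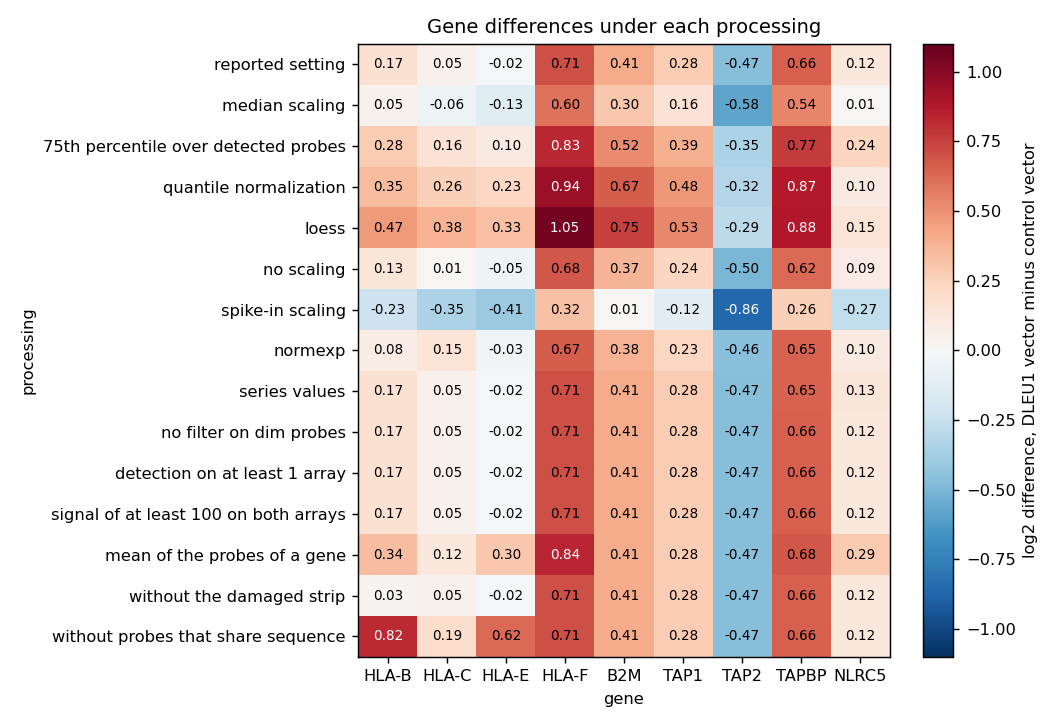
Log2 difference (DLEU1 vector minus control vector, colour and printed value) of each class I gene (columns) under the reported processing and 14 others (rows). TAP2 is below 0 and HLA-F, B2M and TAPBP are above 0 in every row, while spike-in scaling is the row with the lowest value of every gene.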

How the data were processed

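Total RNA of 2 Ca9-22 cultures was labelled with Cy3 and read on 2 Agilent arrays. Per the file headers, the authors' intensity for each spot was the processed signal of Feature Extraction 10.7.3.1, with background subtracted, spatial trend removed and surrogates in place of very dim signals. The authors also deposited the same intensity per spot, rounded. Control and outlier spots were left out, log2 intensity was averaged over the spots of a probe, and the 75th percentile of each array was subtracted. A probe was detected where most of its spots were well above background, and a change was called at 2-fold. Where a probe was detected on 1 array, its bound uses the lowest detected signal of the other array, or its own signal there if that was higher. With 1 array a group no test was made, and precision is limited by that number.

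Probe positions are those of the array annotation (hg19), and probe sequences were read from the same annotation. All 9 genes with every probe were named, as were DLEU1, and in each pathway list the genes past 2-fold, the extremes and those detected on 1 array. PTK6, SLC2A11, RRP7B, HLA-G and HLA-J were named after their values were seen. The genes and lists were chosen with earlier results of these data known. Python 3.11.15, statsmodels 0.14.6 (loess, span 0.3) and limma 3.58.1 (normexp, offset 50) were used, and the code was tested on simulated data. The alternatives were other scalings, background correction, the rounded values, other filters, the mean of probes, the damaged strip, 1.5-fold and 3-fold thresholds, and probes with shared sequence.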

Additional observations from a re-analysis of the deposited data

How the results depend on the processing

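The median over the class I genes (0.17) was 0.47 with loess, 0.35 with quantile normalization, 0.28 where the percentile was taken over detected probes, 0.05 with median scaling, -0.23 with spike-in scaling, 0.30 where probes of a gene were averaged and 0.41 without probes that share sequence, the last chosen after seeing the data. The 7 other settings left it between 0.12 and 0.17. Class I genes at least 2-fold higher numbered 1 with loess and 2 with a 1.5-fold threshold, and 0 in all other settings, and 0 were lower in any. Other pathway genes at least 2-fold higher numbered 2, but 1 with median scaling, no scaling, spike-in scaling, normexp and a 3-fold threshold, 3 with quantile normalization and loess, and 11 with 1.5-fold. Those at least 2-fold lower numbered 4, but 7 with spike-in scaling, 7 with 1.5-fold, 0 with 3-fold, and 3 where the percentile was taken over detected probes and with quantile normalization, loess, normexp and a signal of at least 100. The threshold counts follow by construction, and the cause of the others was not tested. Of 126 values of single class I genes under other settings, 73 stayed within the spot SD of the reported value and 53 did not. In 5 genes, 10 values changed sign. The 73 include settings that could not move a gene, such as filters on the only B2M probe. Higher probes made up 47.9% of all called probes, 38.1% with median scaling and 18.1% with spike-in scaling. A block on slide could not be fitted with 1 array a group. No paired analysis was possible because each group had 1 array. Dim probes such as those of NLRC5 are limited by signal over background.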
